A study of Rattus norvegicus with 20 samples.

Results

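The promoters of 8 genes of lipid storage, synthesis and oxidation (Insig1, Plin2, Stard10, Elovl6, Acacb, Cpt1a, Acadl and Acadm) were followed for NF-kB p65 binding in regenerating rat liver. A gene was taken by its symbol in the peak lists, and its signal from the array probes within 5000 bp of its listed transcription start. These 8 were among 14356 genes named in the peak lists and among 14540 tiled promoters tested. The arrays came from 20 liver samples of male Sprague Dawley rats with a wild-type genotype, 8 to 10 weeks old, that had been fed a liquid diet for 5 weeks. In the ETOH groups ethanol supplied 36% of the calories. In the pair-fed CHO groups carbohydrate took its place. All rats underwent a 70% partial hepatectomy, the standard operation that sets the remaining liver regrowing. The left lateral and median lobes taken out at surgery gave the 0h samples, and the remnant lobes gave those at 1h and 6h, so that the later times also differ from 0h in the lobe sampled. There were 3 arrays of each diet for 0h, 3 for 1h and 4 for 6h. The question behind the series is whether chronic ethanol changes where NF-kB sits in the regenerating liver. Whole liver tissue was used, so more bound copies per cell and more cells of a binding type cannot be told apart.

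NF-kB p65 (RelA) is a transcription factor subunit held in the cytoplasm by inhibitor proteins and released by cytokines such as tumour necrosis factor, which act on the liver within the first hours after hepatectomy. The regenerating liver takes up fatty acids and passes through a phase of lipid droplet storage before cells divide, and long ethanol feeding also loads hepatocytes with fat. Insig1 is a membrane protein of the endoplasmic reticulum that holds back the sterol sensor SCAP with its SREBP factors and speeds the breakdown of HMG-CoA reductase. Plin2 coats lipid droplets, and Stard10 transfers phospholipids between membranes. Elovl6 lengthens palmitate to stearate. Acacb, the carboxylase at the mitochondrial membrane, makes the malonyl-CoA that inhibits the carnitine palmitoyltransferase Cpt1a, the gate for long-chain fatty acids into mitochondria. Acadl and Acadm catalyse the first step of mitochondrial oxidation for long-chain and medium-chain acyl-CoA.

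Signal is the log2 ratio of p65-precipitated to reference DNA, centred on the median of each array and averaged over that stretch of 500 bp in each tiled region whose mean over all arrays was highest. Its direction was not stated with the deposited values, which were turned because listed peaks lay at negative values, so every higher or lower below is likely rather than given. A value of 1 means a ratio at the window that is 2 times that of the median probe. Windows and starts are given in the coordinates of the array files, whose genome build is not given in the sources used here; its exons and introns were not used. The Insig1 window (chr4:2584735-2585215) lay 467 to 947 bp downstream of a start on the minus strand at 2585682. That of Plin2, listed under its older name Adfp (chr5:105732093-105732558), lay 259 to 724 bp downstream of 105732817 on the minus strand. The windows of Stard10 (chr1:158820716-158821017, plus strand), Elovl6 (chr2:226947168-226947571, plus strand), Acadl (chr9:65650808-65651305, minus strand) and Acadm (chr2:251889684-251890160, minus strand) lay wholly downstream of their starts as well, Stard10 at 747 to 1048 bp and Elovl6 at 596 to 999 bp. Cpt1a (chr1:205852571-205852990, plus strand) and Acacb (chr12:43492846-43493326, minus strand) had windows that spanned the start. Each of the 8 tiled regions held no other named gene.

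RefSeq promoters (assembly GRCr8, from 250 bases before to 50 after the start) were found for 6 of the 8 genes. They are shown for Insig1 and Plin2, the genes whose signal rose at 1h in both diets, for Cpt1a, whose window spans the start, and for Acadm, the sole one of the 6 with the NF-kB consensus. Capitals mark the E-box CACGTG, the core read by SREBP, USF and related factors, or a match to the NF-kB consensus. Each sequence runs 5′ to 3′ on the strand of its gene. The coordinates after each name belong to GRCr8, not to the build of the arrays. RefSeq holds a second Plin2 promoter downstream of the first (chr5:106228488-106228787), which had neither capital motif. Whether the Plin2 signal window, also downstream of its listed start, lies over this promoter was not tested.
Insig1 (chr4:8057720-8058019, minus strand): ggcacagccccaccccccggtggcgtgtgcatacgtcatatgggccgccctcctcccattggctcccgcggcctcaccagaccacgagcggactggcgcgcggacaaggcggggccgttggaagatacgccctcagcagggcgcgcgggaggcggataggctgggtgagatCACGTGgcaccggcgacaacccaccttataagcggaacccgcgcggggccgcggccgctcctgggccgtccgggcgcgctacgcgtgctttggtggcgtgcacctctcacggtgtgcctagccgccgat
Plin2 (chr5:106228969-106229268, minus strand): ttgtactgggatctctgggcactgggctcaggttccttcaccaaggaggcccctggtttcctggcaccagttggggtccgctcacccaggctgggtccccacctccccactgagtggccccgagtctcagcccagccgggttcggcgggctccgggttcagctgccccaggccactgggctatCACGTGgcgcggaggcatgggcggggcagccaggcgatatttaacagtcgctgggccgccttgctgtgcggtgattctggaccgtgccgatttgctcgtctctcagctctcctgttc
Cpt1a (chr1:209995910-209996209, plus strand): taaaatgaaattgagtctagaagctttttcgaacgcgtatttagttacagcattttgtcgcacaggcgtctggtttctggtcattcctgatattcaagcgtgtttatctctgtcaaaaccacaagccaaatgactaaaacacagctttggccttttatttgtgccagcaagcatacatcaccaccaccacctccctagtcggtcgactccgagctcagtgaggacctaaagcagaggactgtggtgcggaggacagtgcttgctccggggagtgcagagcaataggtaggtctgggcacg
Acadm (chr2:245542815-245543114, minus strand): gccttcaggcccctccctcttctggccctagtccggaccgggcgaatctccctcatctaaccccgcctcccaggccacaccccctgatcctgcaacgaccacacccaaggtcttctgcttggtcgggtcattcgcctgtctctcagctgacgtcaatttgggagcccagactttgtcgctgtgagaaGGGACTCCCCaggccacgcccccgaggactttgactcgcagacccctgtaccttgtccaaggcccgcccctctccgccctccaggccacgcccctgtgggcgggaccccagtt

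The E-box lay at −79 to −74 of the Insig1 start and at −67 to −62 of the Plin2 start. On either strand CACGTG occurred in 6.42% of 33469 RefSeq rat promoters of the same length. The NF-kB consensus match of Acadm, GGGACTCCCC, lay at −63 to −54, and the consensus occurred in 4.18% of all promoters. AGGTCA, the half-site of PPAR and other nuclear receptors, was found in Acacb alone, at −155 to −150 and at −3 to 3, against 16.2% of all promoters. These matches describe the letters of these windows and not bound sites, and 6 of the 8 signal windows lay further downstream than the stretch shown.

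Arrays differed in ways the groups did not explain. The array identifiers, which the labels do not explain, were read as 4 runs, 11 slides and 16 rats, of which 4 gave a pair of arrays. Run 1 held 5 of the 6 arrays of 0h and none of the 14 later ones, and run 3 held 11 of those 14. The sixth 0h array, ETOH 0h replicate 2, shared slide 4 with CHO 1h replicate 1 and with the 1h array read as its own animal. It read highest of its group at all 8 promoters, so the calls that use it are also given without it, while the other differences include it. The arrays carried 2874 to 9387 listed peaks, which limits how far a count of peaks can be compared between them. Promoter signal does not test which cells were present. At the 6 hepatocyte marker promoters measured, the median difference from 0h to 1h was 0.55 in CHO, where 3 rose, and 0.32 in ETOH, beside 0.47 and 0.50 over the 8 lipid promoters. From 1h to 6h it was −0.29 in CHO, where 3 fell and 1 rose, and −0.51 in ETOH, where 4 fell. Over all promoters the medians were 0.074 in CHO and 0.047 in ETOH to 1h, then 0.067 and −0.078 to 6h. Of all promoters 8.64% rose to 1h in CHO. From 1h to 6h 6.91% fell and 17.1% rose in CHO, and 16.1% fell in ETOH. Over the 6 lists of other cell types the medians from 0h to 1h ran from 0.084 to 0.18 in CHO and from −0.22 to 0.16 in ETOH, and those from 1h to 6h from −0.061 to 0.31 in CHO and from −0.043 to 0.097 in ETOH. Their part in the results was not tested.

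Insig1 showed the widest swing among the 8 promoters. In CHO liver its signal was 0.14, 0.066 and 0.072 on the 3 arrays of 0h, 0.93, 1.53 and 0.91 at 1h, and 0.051, −0.11, −0.17 and −0.04 on the 4 arrays of 6h. In ETOH liver it was −0.32, 0.91 and 0.032 at 0h, 0.95, 1.49 and 1.24 at 1h and −0.23, −0.27, 0.0092 and −0.23 at 6h. Every 1h array of either diet thus lay above every 0h and 6h array of its diet, and ETOH 0h replicate 2, at 0.91, nearly reached the 1h level. The rise from 0h to 1h was 1.03 ± 0.20 (SE) in CHO (limma adjusted p = 0.00454) and 1.02 ± 0.20 in ETOH (adjusted p = 0.023), on the log2 scale. Between 1h and 6h the signal fell by 1.19 ± 0.19 in CHO (adjusted p = 0.000242) and fell by 1.40 ± 0.19 in ETOH (adjusted p = 0.00011). Among 14540 promoters these ranked as fall number 7 and number 4.

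Plin2 followed the same course at a smaller scale. Its CHO signal was 0.18, 0.33 and 0.068 at 0h, 0.79, 0.89 and 0.66 at 1h and 0.061, 0.35, 0.23 and 0.23 at 6h. Its ETOH signal was 0.34, 0.53 and 0.13 at 0h, 0.98, 0.85 and 1.09 at 1h and 0.16, 0.17, 0.08 and 0.25 at 6h. The 1h arrays of this lipid droplet gene did not overlap with those of 0h or 6h in either diet. The rise was 0.59 ± 0.14 in CHO (limma adjusted p = 0.0124) and 0.64 ± 0.14 in ETOH (adjusted p = 0.0458). By 6h it fell by 0.57 ± 0.14 in CHO (adjusted p = 0.00398) and fell by 0.81 ± 0.14 in ETOH (adjusted p = 0.00032).

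Stard10, the phospholipid transfer gene, had its highest values in ETOH liver at 1h, at 0.71, 1.39 and 1.25. The ETOH arrays of 0h read −0.49, 0.48 and 0.14 and those of 6h −0.039, 0.23, 0.24 and 0.16. In CHO liver the values were −0.047, −0.0019 and 0.12 at 0h, 0.25, 0.87 and 0.60 at 1h and 0.42, 0.49, 0.11 and 0.28 at 6h. The 1h arrays lay above the other times in ETOH, whereas in CHO the ranges of 1h and 6h overlapped. In ETOH the signal rose by 1.07 ± 0.19 to 1h (limma adjusted p = 0.0101) and fell by 0.97 ± 0.18 to 6h (adjusted p = 0.000756). In CHO the differences were 0.55 ± 0.19 (adjusted p = 0.0624) and −0.25 ± 0.18 (adjusted p = 0.335), and neither passed.

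Of the genes of fatty acid synthesis, Elovl6 had its lowest signal at 6h. Its values were 0.086, 0.26 and 0.35 in CHO at 0h, 1.11, 0.45 and 0.28 at 1h and −0.31, −0.28, −0.093 and −0.31 at 6h. In ETOH they were 0.42, 1.26 and −0.015 at 0h. The ETOH arrays of 1h read 1.05, 0.83 and 0.32, and those of 6h −0.072, −0.36, −0.41 and −0.22. All 8 arrays of 6h lay below all 6 arrays of 1h, and the 3 highest arrays were those of slide 4, one of them ETOH 0h replicate 2 at 1.26. From 1h to 6h the Elovl6 signal fell by 0.86 ± 0.20 in CHO (limma adjusted p = 0.00339) and fell by 1.00 ± 0.20 in ETOH (adjusted p = 0.00136). The differences from 0h to 1h, 0.39 ± 0.21 in CHO and 0.18 ± 0.21 in ETOH, did not pass (adjusted p = 0.238 and 0.713).

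Acacb, the carboxylase gene, took another course. In CHO liver its signal was −0.31, −0.26 and −0.051 at 0h, 0.50, 0.56 and 0.48 at 1h and 0.46, 0.29, 0.32 and 0.44 at 6h, so it was higher at 1h and remained above every 0h array at 6h. In ETOH liver it was 0.05, 0.40 and −0.20 at 0h. The ETOH arrays of 1h read 0.19, 0.26 and 0.15, those of 6h 0.19, 0.012, 0.27 and 0.066, and all ranges overlapped. The overlap of 0h with 1h rests on ETOH 0h replicate 2, at 0.40, as the other 0h arrays lay below those of 1h. The CHO rise was 0.72 ± 0.13 at 1h (limma adjusted p = 0.00269) and 0.58 ± 0.12 at 6h (adjusted p = 0.00201). The ETOH differences were 0.12 ± 0.13 (adjusted p = 0.672) and 0.051 ± 0.12 (adjusted p = 0.841). The diets' changes from 0h differed by −0.60 ± 0.18 at 1h (adjusted p = 0.422) and −0.53 ± 0.17 at 6h (adjusted p = 0.293), which did not pass.

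Of the oxidation genes, Cpt1a changed most between times. Its CHO values were 0.31, 0.12 and 0.30 at 0h, 0.62, 0.71 and 0.50 at 1h and 0.32, 0.30, 0.27 and 0.24 at 6h. Its ETOH values were 0.17, 0.46 and 0.056 at 0h, 0.46, 1.36 and 1.03 at 1h and −0.11, −0.041, 0.31 and −0.059 at 6h. In ETOH at 1h the arrays on slides 5 and 6 were high, and the one on slide 4 differed by −0.0074 from the 0h array beside it. From 1h to 6h the Cpt1a signal fell by 0.92 ± 0.16 in ETOH (limma adjusted p = 0.00036). The CHO difference, −0.33 ± 0.16, did not pass (adjusted p = 0.129), nor did the differences from 0h to 1h of 0.37 ± 0.17 in CHO (adjusted p = 0.153) and 0.72 ± 0.17 in ETOH (adjusted p = 0.0518).

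The acyl-CoA dehydrogenase genes Acadl and Acadm moved over narrower ranges. Acadl averaged 0.24 ± 0.032 (SD, n = 3) in CHO at 0h, 0.29 ± 0.18 (n = 3) at 1h and 0.14 ± 0.059 (n = 4) at 6h. In ETOH it averaged 0.17 ± 0.05, 0.53 ± 0.30 and 0.11 ± 0.047, the 1h arrays reading 0.19, 0.64 and 0.76. In CHO Acadm read 0.32, 0.39 and 0.27 at 0h, 0.16, 0.32 and 0.27 at 1h and −0.057, 0.081, 0.14 and 0.015 at 6h, where all 4 arrays lay below the earlier ones. Its ETOH arrays of 0h read 0.09, 0.54 and 0.082. It averaged 0.43 ± 0.19 in ETOH at 1h (n = 3) and 0.044 ± 0.033 at 6h (n = 4). Between 1h and 6h in ETOH Acadl fell by 0.42 ± 0.12 (limma adjusted p = 0.0129) and Acadm fell by 0.38 ± 0.12 (adjusted p = 0.0182). Without ETOH 1h replicate 3 both missed the threshold (adjusted p = 0.0972 and 0.121), and Acadl also did without replicate 2 (adjusted p = 0.0534). Acadm, whose promoter carries the NF-kB consensus letters, differed by −0.079 ± 0.13 from 0h to 1h in CHO and by 0.19 ± 0.13 in ETOH (adjusted p = 0.711 and 0.449).

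**Figure D1:**
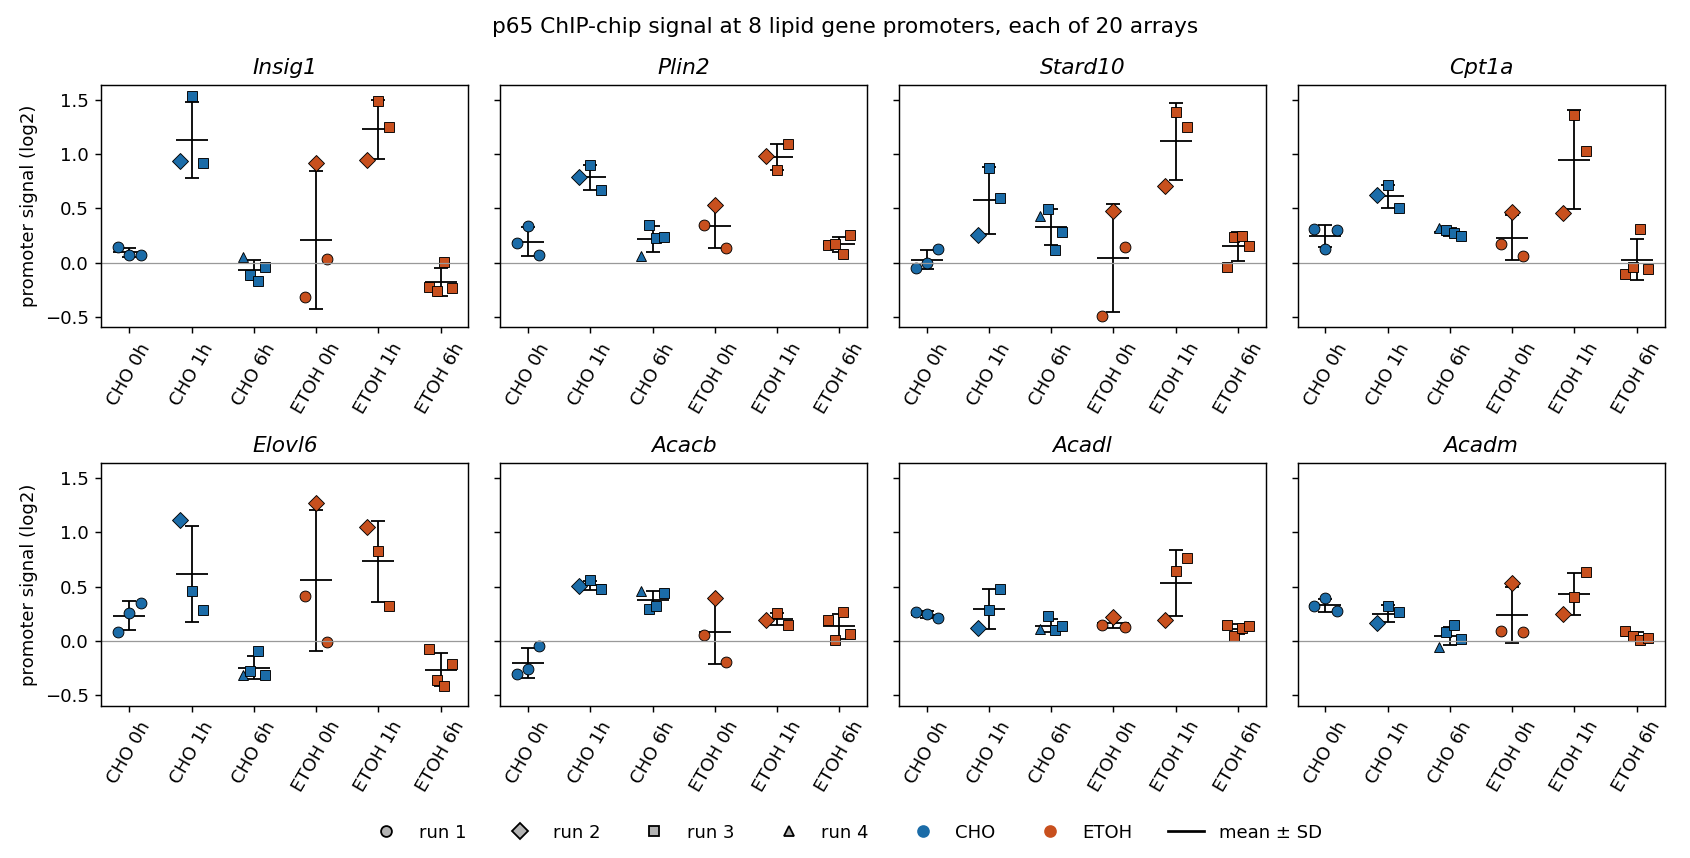
Promoter signal (log2) of the 8 genes on each of 20 arrays, by diet and time, 1 panel per gene; marker shape gives the array run, and bars give the mean ± SD of each group (n = 3 or 4). Insig1 and Plin2 stand highest at 1h in both diets, Acacb in CHO lies above its 0h arrays at 6h, and the run 2 diamond in ETOH 0h is replicate 2, at 0.91 for Insig1 and 1.26 for Elovl6.

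From 0h to 1h every call among the 8 promoters was a rise. As the 8 were chosen with earlier results of these data known, the shares over all promoters here and below are a description. In CHO liver 3 of the 8 rose from 0h to 1h (Insig1, Acacb and Plin2) and none fell, against 8.64% of all 14540 promoters that rose and 2.46% that fell. In ETOH liver 3 of the 8 rose (Stard10, Insig1 and Plin2), against 0.248% of all that rose and 0.0275% that fell. By ranges alone, the 1h arrays lay wholly above those of 0h at 5 of the 8 in CHO (21.4% of all promoters) and at 3 in ETOH (6.34%). The median difference over the 8 was 0.47 in CHO and 0.50 in ETOH, beside 0.074 and 0.047 over all promoters. The ETOH calls rested on few arrays. Without ETOH 0h replicate 2 there were 4, with Cpt1a added at 0.83 (limma adjusted p = 0.00467), and Insig1 then rose by 1.37, Stard10 by 1.29 and Plin2 by 0.73. Without ETOH 1h replicate 1 there were 5, Cpt1a and Acadl among them at 0.96 and 0.54, and without ETOH 0h replicate 1, ETOH 0h replicate 3, ETOH 1h replicate 2 or ETOH 1h replicate 3 there were 0. In those 4 fits Insig1 still differed by 0.75 to 1.01, Stard10 by 0.81 to 1.12 and Plin2 by 0.54 to 0.70, with adjusted p from 0.0537 to 0.343 over the 3 genes, and between 1 and 9 of all promoters were called higher, against 36 with all arrays. In CHO, leaving out 1 array gave from 2 to 4, and without CHO 1h replicate 2 Plin2 missed the threshold at 0.54 (adjusted p = 0.0635).

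The rise to 1h could hardly be separated from the array run. With run as a term in the limma fit no member passed in either diet, while 864 promoters in CHO and 738 in ETOH had an unadjusted p under 0.05, the Insig1 difference being −0.26 in CHO and 0.075 in ETOH (limma adjusted p = 0.987 and 0.998). That estimate of time rests on slide 4. There, between arrays read as the same rat, ETOH 1h replicate 1 minus ETOH 0h replicate 2 was 0.032 for Insig1, 0.45 for Plin2 and 0.23 for Stard10, with 5 of 8 genes lower and 3 higher at 1h. The median difference of this pair was −0.020 over the 8 genes and −0.055 over all promoters. The other rat with arrays of 0h and 1h, CHO 0h replicate 2 and CHO 1h replicate 1, was measured in separate runs. Its largest differences were 0.87 for Insig1, 0.85 for Elovl6 and 0.76 for Acacb, and its lowest was −0.23 for Acadm. Of the 8 genes 6 were higher and 2 lower at 1h. The median was 0.48 over the 8 and 0.18 over all promoters. The share of all promoters that were higher or lower in either rat was not counted.

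**Figure D2:**
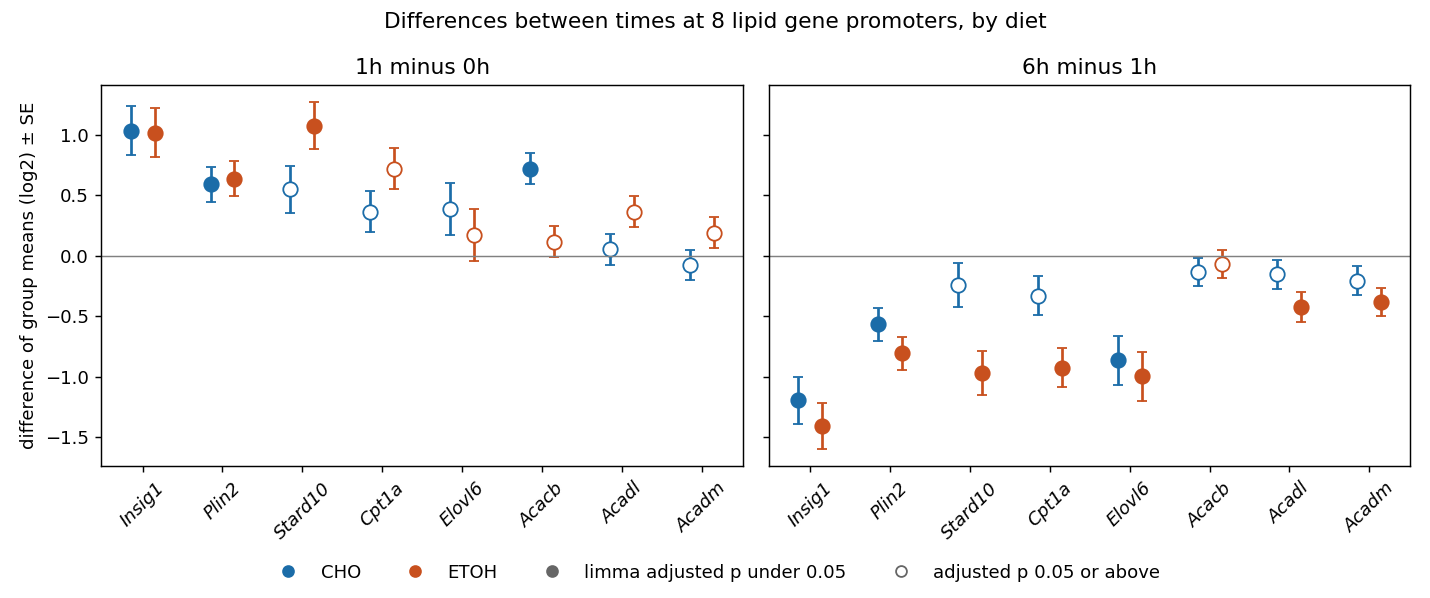
Differences of group means (log2 ± SE from the limma fit) from 0h to 1h and from 1h to 6h at the 8 promoters, for CHO and ETOH. Filled points passed an adjusted p of 0.05 over 14540 promoters: 3 in each diet for 1h minus 0h, and 3 in CHO and 7 in ETOH for 6h minus 1h.

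Between 1h and 6h every call among the 8 was a fall. In ETOH liver 7 of the 8 promoters fell, with Acacb the exception at −0.067 ± 0.12, against 16.1% of all promoters that fell and 7.73% that rose. In CHO liver 3 of the 8 fell (Insig1, Elovl6 and Plin2), against 6.91% of all that fell and 17.1% that rose. The median difference was −0.86 in ETOH and −0.29 in CHO, beside −0.078 and 0.067 over all promoters. Insig1, Elovl6 and Plin2 passed in both diets, as did 4.31% of all promoters. The 6h arrays lay wholly below those of 1h at 6 of the 8 in CHO (12% of all promoters) and at 7 in ETOH (19.4%). With both diets pooled, every 6h array lay below every 1h array at Insig1, Plin2, Cpt1a, Elovl6 and Acadm. These are 5 of the 8, against 5.43% of all promoters. Leaving out 1 array gave 3 calls each time in CHO and from 5 to 7 in ETOH, and with run as a term 5 and 7 passed.

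The fall could be read within slides 5 and 6, as the rise was on slide 4. On slide 5, CHO 6h replicate 2 lay below CHO 1h replicate 2 at 8 of 8 genes, with differences of −1.65 at Insig1, −0.73 at Elovl6 and −0.55 at Plin2. On slide 6, ETOH 6h replicate 1 lay below ETOH 1h replicate 3 at 7 of 8, with differences of −1.47 at Insig1, −1.29 at Stard10 and −1.13 at Cpt1a, with 0.043 at Acacb. Each of these sets a single array against another, read as different rats. The median difference on slide 5 was −0.40 over the 8 genes and 0.019 over all promoters. On slide 6 these medians were −0.77 and −0.15. The share of all promoters that were lower in these pairs was not counted. Over the 11 arrays of run 3 alone Insig1 fell by 1.33 in CHO and fell by 1.54 in ETOH (limma adjusted p = 5.55e-07 and 4.31e-09).

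**Figure D3:**
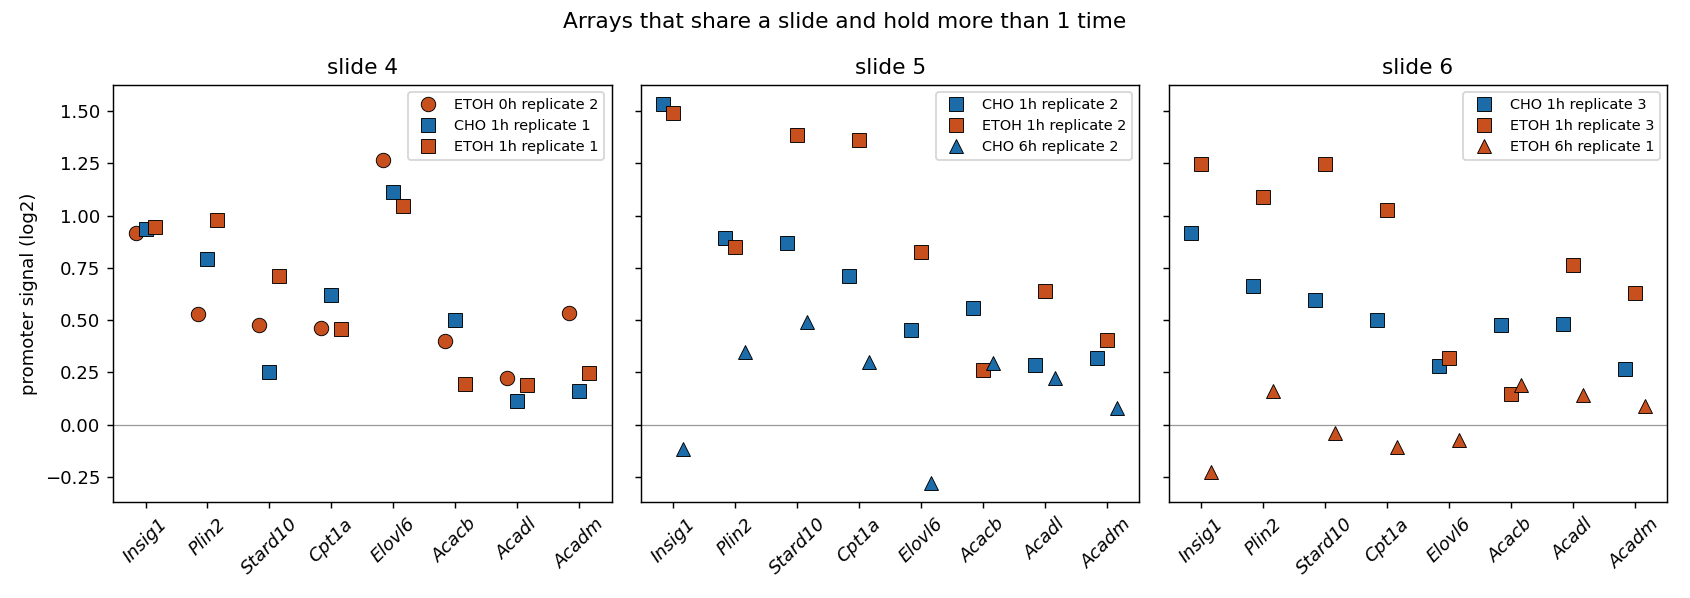
Promoter signal (log2) of the 8 genes on the 3 slides that hold more than 1 time, 1 point per array; circles are 0h, squares 1h and triangles 6h, blue CHO and orange ETOH. On slide 4 the 0h array lies near the 1h arrays, while on slides 5 and 6 the 6h triangle lies lowest at every gene but Acacb.

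Between 0h and 6h 1 of the 8 promoters passed in each diet. In CHO liver Acacb alone rose, against 18.6% of all promoters that rose and 2.02% that fell, and Elovl6 differed by −0.48 ± 0.20 (limma adjusted p = 0.0852). With run as a term Acacb differed by 0.073 (adjusted p = 0.898), and the 1 call was Insig1, which fell by 1.61 (adjusted p = 0.0148). That estimate too rests on slide 4, whose sole 0h array, ETOH 0h replicate 2, read 0.91 for Insig1. Without the term the Insig1 difference in CHO was −0.16 ± 0.19 (limma adjusted p = 0.58). In ETOH liver Elovl6 alone passed and fell by 0.82 ± 0.20 (adjusted p = 0.0403), against 0.626% of all promoters that fell and 0.371% that rose. Without ETOH 0h replicate 2 that difference was −0.47 (adjusted p = 0.33), and it passed only without ETOH 0h replicate 3 among the 7 fits that left out 1 ETOH array. Between the 0h and 6h arrays read as the same ETOH rat, in separate runs, Elovl6 differed by −0.057 and Acacb by 0.39. For the CHO rat, also in separate runs, these were −0.63 and 0.34. The medians over all promoters were 0.019 for the ETOH rat and 0.043 for the CHO rat. Over all promoters the CHO median lay at 0.15 at 6h against 0h, so that the CHO differences of this comparison are to be read relative to that shift. The comparisons with 0h and with 1h share arrays, so their values are not independent of each other.

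Ethanol and carbohydrate livers were not told apart at any of the 8 promoters. At 1h the largest differences, ETOH minus CHO, were 0.54 ± 0.19 at Stard10 (limma adjusted p = 0.485), 0.34 ± 0.17 at Cpt1a (adjusted p = 0.619) and −0.31 ± 0.13 at Acacb (adjusted p = 0.509). None of the 8 passed by limma at 0h, 1h or 6h, as 0 of 14540 promoters did, although 1106, 1189 and 1590 promoters had an unadjusted p under 0.05 at these times. Tests of the difference between the diets' changes over time gave 0 calls by limma for 1h against 0h, 6h against 0h and 6h against 1h, where 1371, 1954 and 2044 promoters had an unadjusted p under 0.05. For 6h against 1h, the ETOH change minus the CHO change was −0.72 ± 0.26 at Stard10 (adjusted p = 0.25) and −0.60 ± 0.22 at Cpt1a (adjusted p = 0.262), and over all promoters the median of this difference was −0.14. That 7 promoters fell in ETOH and 3 in CHO therefore does not show that the diets differ.

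Stard10 and Cpt1a passed this test where fewer arrays were used. Among the 11 arrays of run 3, the ETOH change minus the CHO change was −0.83 at Cpt1a (limma adjusted p = 0.0101) and −0.73 at Stard10 (adjusted p = 0.0268), and Cpt1a was higher in ETOH at 1h by 0.59 (adjusted p = 0.0427). Over all 14540 promoters this fit called 1532 lower and 83 higher for the difference between the diets' changes, and 319 higher and 39 lower in ETOH at 1h. Without ETOH 1h replicate 1, the slide 4 array, the difference between the changes was −0.84 at Cpt1a (adjusted p = 0.0228) and −0.92 at Stard10 (adjusted p = 0.0358), with 543 of all promoters called lower and 35 higher. Leaving out any other array of the 1h and 6h groups gave 0 calls among the 8.

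The authors' peak lists, made for each of these same arrays, placed the peaks of these genes mostly at 1h. The lists are no independent check of the signal, and the 8 genes were chosen with earlier results of these data known. In the ETOH 1h group 7 of the 8 genes had a peak on at least 2 of 3 arrays, against 41.6% of the 14356 genes. In the CHO 1h group 4 had (Insig1, Plin2, Cpt1a and Acacb), against 28.8%. At 0h and 6h no member had a peak on 2 arrays in either diet, where 20.6% (CHO 0h), 39.6% (CHO 6h), 19.8% (ETOH 0h) and 30.2% (ETOH 6h) of genes had. Of the ETOH 0h arrays, replicate 2 had peaks at 5 of the 8 genes, against 34.8% of all genes, and the other two at none, against 22.2% and 28%. With peaks of FDR at most 0.05 alone, the counts at 1h were 6 in ETOH and 3 in CHO, and with peaks within 2000 bp of the start alone they were 7 and 3.

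For Insig1 the downstream peak was listed on all 6 arrays of 1h and on ETOH 0h replicate 2. It lay at chr4:2584735-2585172 on 5 of those 1h arrays, with authors' peak scores of 1.54 on CHO 1h replicate 2, 0.77 on CHO 1h replicate 3, and 0.81, 1.35 and 1.16 on the 3 ETOH arrays. Stard10 had its downstream peak (chr1:158820516-158821066) on 3 of the 1h arrays, scored 0.39 on CHO replicate 3 and 0.76 and 0.83 on ETOH replicates 1 and 2, and a longer one (chr1:158820327-158821066) on ETOH replicate 3. Other genes had peaks less fixed in place, the Plin2 centres running from −2328 to 684 bp of the start (negative upstream). The Elovl6 peak of ETOH 1h replicate 3 was centred at −506 bp, against 782 and 881 bp on the other ETOH 1h arrays. The Acacb peaks of CHO 1h were centred at −3667 and −207 bp. No Acacb peak was listed on any ETOH array, whereas 2 of the 3 CHO 1h arrays and 1 of the 4 CHO 6h arrays had one.

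**Figure D4:**
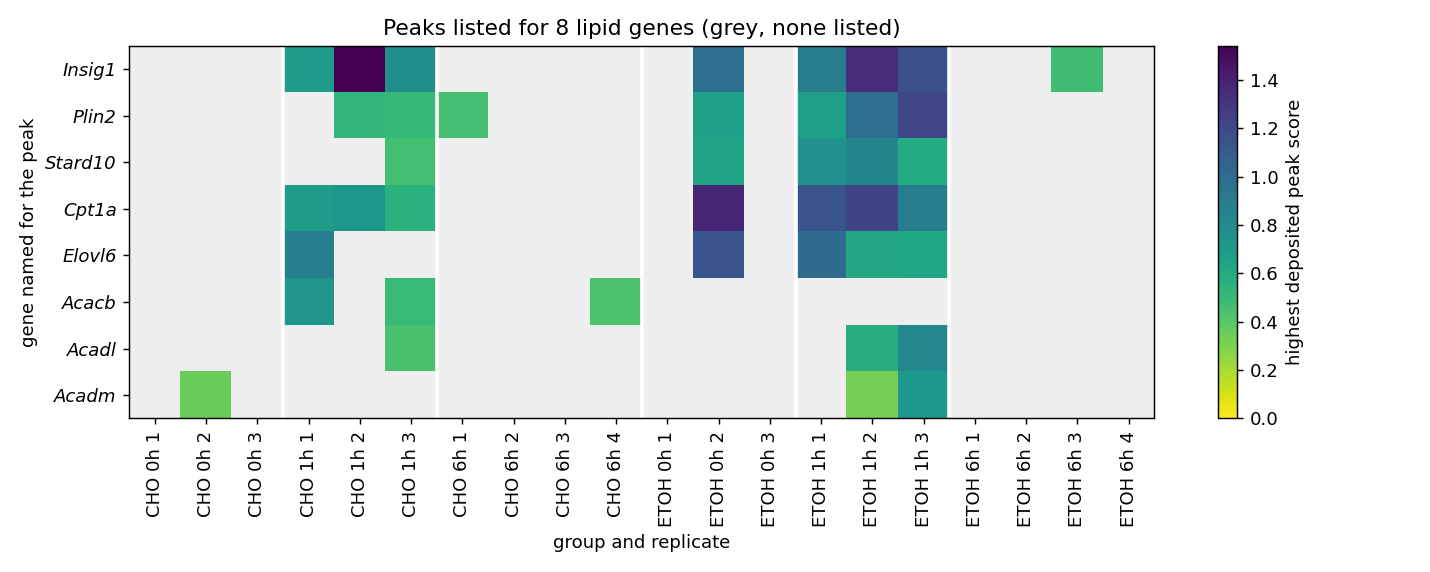
Highest peak score listed by the authors for each of the 8 genes (rows) on each of 20 arrays (columns, by group and replicate); grey marks an array with no listed peak for that gene. Peaks crowd into the 1h columns of both diets and into ETOH 0h replicate 2, which had 5 of the 8 genes.

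Along the tiled regions the 1h signal was not spread evenly. At Insig1 the probes of the window, downstream of the start, averaged up to 1.80 in CHO and 2.01 in ETOH at 1h, at 559 bp from the start, while the probe at 47 bp averaged 0.038 and −0.0077. A second Insig1 site with a listed peak on 7 arrays lay upstream (chr4:2587035-2587464, centred at −1568 bp). Its mean ± SD (n = 3, 3 and 4) in CHO was −0.094 ± 0.083 at 0h, 0.53 ± 0.31 at 1h and 0.37 ± 0.096 at 6h, and in ETOH 0.23 ± 0.49, 0.79 ± 0.16 and 0.29 ± 0.22. At 6h this upstream site kept a positive mean in both diets while the downstream window averaged −0.067 ± 0.094 and −0.18 ± 0.13. Other upstream probes did not. The probe at −748 bp averaged 1.03 in CHO and 0.92 in ETOH at 1h, and −0.24 and −0.12 at 6h.

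Cpt1a too had an upstream site, centred at −2820 bp (chr1:205849761-205850198), with a listed peak on 7 arrays. Its mean in CHO was 0.055 ± 0.048 at 0h, 0.76 ± 0.22 at 1h and −0.12 ± 0.20 at 6h. The ETOH means were 0.32 ± 0.89, 0.83 ± 0.32 and −0.093 ± 0.069, the highest single value, 1.32, being a 0h array. These sites were chosen from the peak lists, and their values are a description. Within 500 bp of the start, Plin2 and Cpt1a passed as they did in their windows, at −0.64 and −0.84 for 6h minus 1h in ETOH (limma adjusted p = 0.000513 and 0.000177). Those of Insig1, Elovl6 and Stard10 were −0.17, −0.14 and −0.029 there and did not pass.

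**Figure D5:**
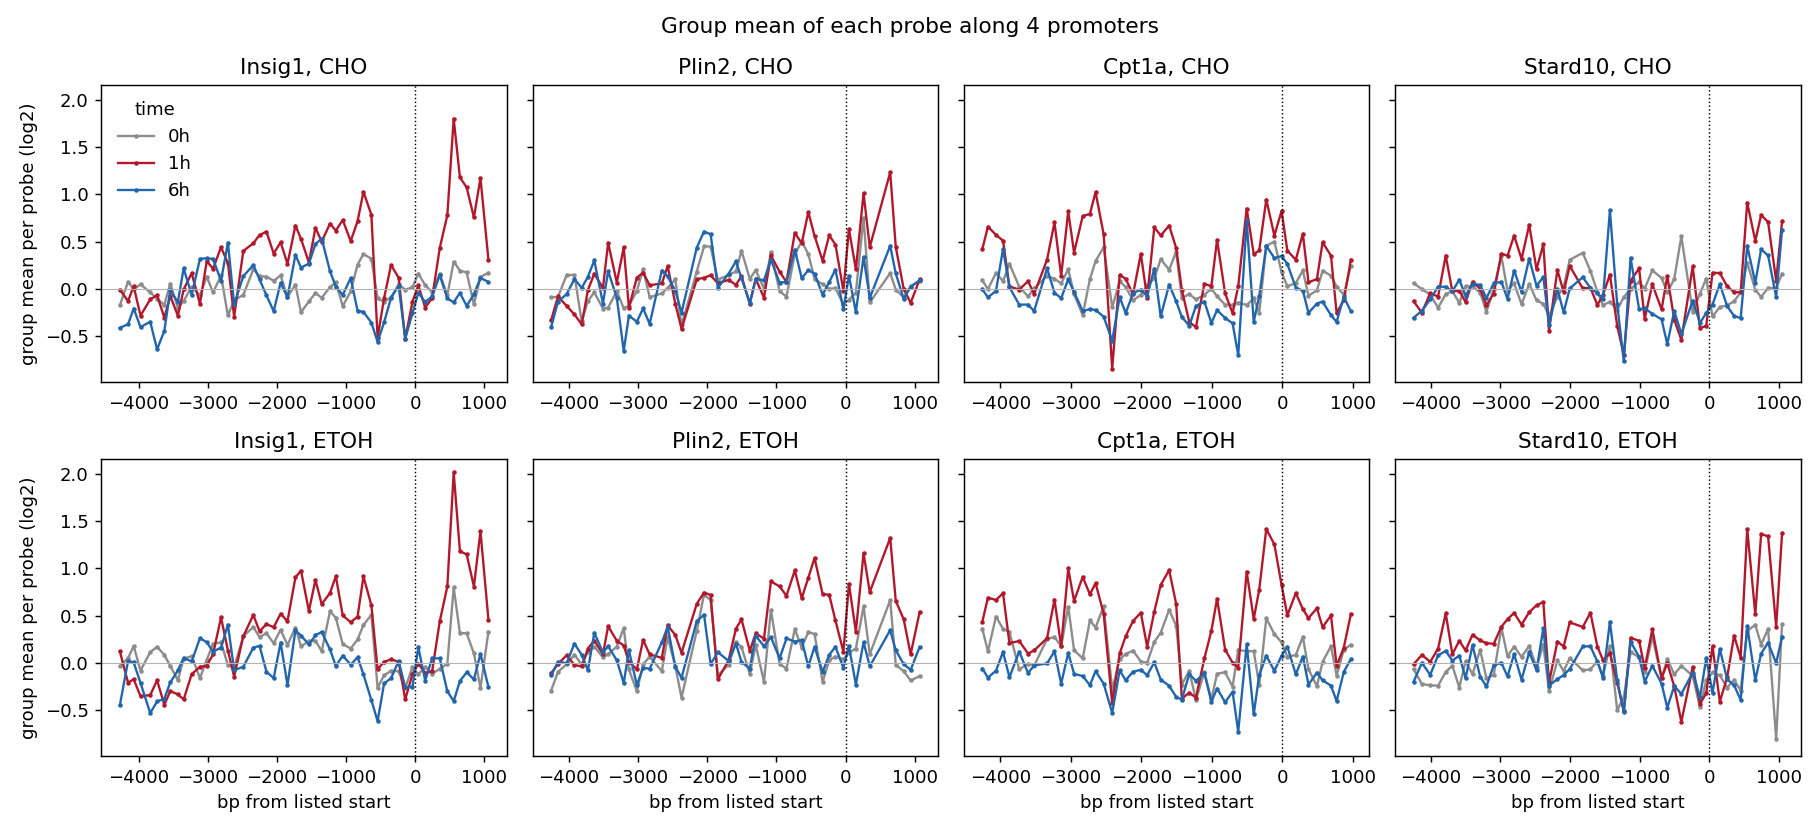
Mean signal of each probe (log2, 1 line per time) against its distance in bp from the listed start (dotted line), for Insig1, Plin2, Cpt1a and Stard10 in CHO (upper row) and ETOH (lower row). The 1h line rises downstream of the start at Insig1 and Stard10 and over the start at Cpt1a. Upstream sites lie at −1568 bp of Insig1 and −2820 bp of Cpt1a. The Stard10 probe at −2587 bp averaged 0.68 in CHO and 0.54 in ETOH at 1h.

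The wider lipid programme was read from 5 lists with 101 genes, of which 89 had a named promoter. These lists too were chosen with earlier results of these data known. Without the 8 members, 12 of 81 rose and 1 fell from 0h to 1h in CHO, against 8.64% and 2.46% of all promoters, and the 3 calls of all 89 in ETOH were the members named above. From 1h to 6h, 8 of the 81 fell and 3 rose in CHO, against 6.91% and 17.1% of all promoters. In ETOH 25 of the 81 fell and 1 rose, against 16.1% and 7.73% of all, and the median was −0.23 beside −0.078 over all promoters. By list, against the same 16.1%, 10 of 26 promoters of fatty acid oxidation and ketogenesis fell in ETOH, 6 of 14 of sterol sensing and synthesis, 5 of 14 of fatty acid synthesis, 5 of 17 of triglyceride storage, and 6 of 18 of lipid transport, members included. Scarb1, the HDL receptor that takes up cholesterol esters, rose by 0.86 ± 0.24 at 1h in CHO (limma adjusted p = 0.0237). From 1h to 6h Scarb1 fell by 1.20 ± 0.23 in CHO (adjusted p = 0.000724) and fell by 1.06 ± 0.23 in ETOH (adjusted p = 0.00199).

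Some promoters of the lists went the other way. Cd36, the fatty acid translocase of the plasma membrane, rose from 1h to 6h by 0.38 ± 0.12 in CHO (limma adjusted p = 0.0277) and by 0.66 ± 0.12 in ETOH (adjusted p = 0.000737). Eci1, an isomerase for the oxidation of unsaturated fatty acids, and Acsl3, an acyl-CoA synthetase of lipid droplets, rose in CHO by 0.48 ± 0.15 and 0.40 ± 0.13 in that interval (adjusted p = 0.0217 and 0.0235). Against 0h they rose by 0.70 ± 0.15 and 0.57 ± 0.13 at 6h (adjusted p = 0.00288 and 0.00347). Fdft1, which makes squalene, fell by 0.47 ± 0.14 from 0h to 1h in CHO (adjusted p = 0.0293) and fell by 0.40 ± 0.13 from 0h to 6h (adjusted p = 0.0282). The shared promoter of Hadha and Hadhb, the trifunctional protein of mitochondrial oxidation, fell by 0.39 ± 0.12 from 0h to 6h in CHO (adjusted p = 0.0201).

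Across the 20 arrays the members differed in how alike their signals were. Insig1 correlated at r = 0.89 with Plin2 and 0.87 with Cpt1a, and Cpt1a at 0.84 with Stard10, while Acacb correlated at −0.09 with Acadm and 0.06 with Acadl. These values describe arrays that share time, diet, run and slide. The promoters most like a member by Pearson r over the 20 arrays were Slc25a29, Btg2 and that shared by Cep95, Ddx5 and Polg2 for Insig1 (r = 0.95, 0.95 and 0.94), and Amigo1, Phyh and that of Esrp2 and Pla2g15 for Plin2 (0.94, 0.94 and 0.93). For Cpt1a they were Gpx1, Mst1 and Cbln3 (0.96, 0.94 and 0.93), and for Stard10 Csnk1d, Itih4 and Rpl10 (0.93, 0.90 and 0.90). Elovl6 was most like Npb, Il3ra and Negr1 (0.95, 0.95 and 0.94), and Acacb like Pla2g3 and Gsg1 (0.92 and 0.90). Acadl was most like Ppia, Decr1 and Id2 (0.92, 0.91 and 0.90), and Acadm like Chd1l, Bcl2l11 and Prox1 (0.91, 0.90 and 0.89).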

How the data were processed

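NF-kB p65 ChIP-chip was deposited for 20 samples, 1 NimbleGen promoter array each. Per the labels' protocols, chromatin was sheared to about 500 bp and precipitated with a p65 antibody. The channel labels give input DNA in Cy3 and the labelling text IgG-precipitated DNA, so the reference is unsettled. The deposited table of the authors held 1 log2 ratio for each of 713735 probes. Each peak in the authors' lists carries a score and an FDR, which is of the p-value or q-value kind, per the file headers, with 0.19961 the highest. Genome build, peak caller and centring are not given in the sources used here. Of the peaks, 99.9% to 100% lay below 0 on each array, so values were multiplied by −1.

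Probes were joined into regions at gaps up to 1000 bp, and the signal was taken from the highest window of 500 bp that held 4 or more probes. Of 14723 regions 14540 had one, and 13303 were named through RefSeq accessions, of which 13678 of 14678 matched (assembly GRCr8, names alone). The number of arrays limits the precision. The fit was limma 3.58.1 (R 4.3.3; lmFit, contrasts.fit, eBayes with trend) with 6 group means, two-sided, 12 comparisons, each adjusted by Benjamini-Hochberg over all promoters, with a threshold of 0.05, and was tested on simulated data. Python 3.11.15 with numpy 2.4.6 and pandas 2.3.3 made the tables and matplotlib 3.10.9 the figures. Alternatives were run, slide, animal or replicate number in the fit, other windows, scaled arrays, run 3 alone and leaving out each array. Where an array left out leaves 2 in a group, they are assumed to vary like the other groups.

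Replicate numbers come from the titles. At 1h same-numbered arrays of both diets share a slide, and their deviations from the group means correlated at 0.504, 0.191 and 0.280. Arrays on separate slides, CHO 1h replicate 3 and ETOH 1h replicate 2, correlated at 0.290. The slide pairs at 1h entered alternative fits alone, and the diet differences at 1h in the Results come from the fit without pairs. For the other groups same-numbered arrays were not taken as pairs. The labels number biological replicates and name no animals. The limma p-values set differences of group means against only the scatter among these samples, and that scatter may be technical.

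The 8 members and the lists were chosen with earlier results of these data known. Named were the members, the up to 3 largest rises and falls of the lipid lists in each comparison, and the 3 promoters most like each member, of which 1 for Acacb is not reported here. Of the lists, 12 genes had no named promoter and are not analysed here: Bdh1, Cidea, Fasn, Mlxipl, Mvk, Plin3, Plin4, Plin5, Pnpla3, Slc27a4, Srebf1 and Stard5.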

Additional observations from a re-analysis of the deposited data

Results flagged for a closer look

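Of the 16 sets of 4 arrays at 6h (8 genes in both diets), 3 held an array whose distance from its nearest neighbour, as a share of the range of its group, passed the critical value of Dixon's test, which chance passes in about 1 in 20 groups. The share was 0.857 for Insig1 in ETOH, 0.839 for Cpt1a in ETOH and 0.858 for Elovl6 in CHO, and the next highest, 0.722 for Acadl in ETOH, did not pass. Insig1 read 0.0092 on ETOH 6h replicate 3, while the other arrays of that group ran from −0.27 to −0.23. That array was the sole one at 6h with a listed Insig1 peak, at the upstream site and not in this window. Cpt1a read 0.31 on the same array, the others running from −0.11 to −0.041. Elovl6 read −0.093 on CHO 6h replicate 3, the others running from −0.31 to −0.28.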

How the results depend on the processing

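Counts are members called by limma at an adjusted p under 0.05. In the 1h against 0h comparisons (3 in each diet) they went to 0 in both with array run as a term and with the lowest window of each region in place of the highest, and leaving out 1 array gave 2 to 4 in CHO and 0 to 5 in ETOH. For CHO 6h against 0h (1) the count was 2 with the mean of the tiled region (1 higher, 1 lower), 2 with the lowest window (both lower) and 3 with arrays scaled to the same spread (1 higher, 2 lower), and 1 without each array. With run as a term it was again 1, but a fall of Insig1 in place of the rise of Acacb. For ETOH 6h against 0h (1) it was 4 with run as a term and 0 with slide as a random block, the region mean, the 500 bp nearest the start or the lowest window, and 0 to 1 without each array. For CHO 6h against 1h (3) it was 5 with run as a term, 0 with the lowest window and 3 without each array. For ETOH 6h against 1h (7) it was 2 near the start, 0 with the lowest window and 5 to 7 without each array. Run 3 alone gave 1 call for ETOH against CHO at 1h and 2 for the diet difference in 6h against 1h, which ranged from 0 to 2 without each array. The other diet comparisons stayed at 0 in every alternative run.

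Directions turned in these cases. Under the lowest window, the differences from 0h to 1h were −0.13 at Insig1 and −0.20 at Plin2 in CHO, and −0.37 at Insig1 and −0.13 at Stard10 in ETOH. Those from 1h to 6h were 0.15 at Plin2 in CHO, and 0.054 at Plin2 and 0.00041 at Acadl in ETOH. Those from 0h to 6h in CHO were −0.42 at Stard10 and −0.0062 at Acacb. With run as a term, Insig1 turned to −0.26 in CHO from 0h to 1h, and Stard10 to −0.88 in ETOH from 0h to 6h. Estimates against 0h with that term rest on slide 4, through ETOH 0h replicate 2. The cause was not tested. The lowest window holds other probes, which by its construction carry the least signal.

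With the replicate number as a block, the counts were 4 and 4 for 1h against 0h in CHO and ETOH, adding Stard10 at 0.55 in CHO (adjusted p = 0.0288) and Cpt1a at 0.72 in ETOH (adjusted p = 0.0375). They were 1 and 1 for 6h against 0h, 3 and 7 for 6h against 1h and 0 in the diet comparisons. In the 6 arrays of 1h, where the numbers mark pairs, the block also gave 0, and it changed no other call. The block on animals, the values within slides and this last fit were chosen after seeing the data. Slide and animal blocks had estimated correlations of 0.191 and 0.072, and the animal block left the count of calls at its value in all 12 comparisons. Groups of 3 or 4 arrays set the precision, and run 1 and 0h can hardly be told apart.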
